A study of Mus musculus with 18 samples.

Results

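A set of 8 receptors of the TNF receptor superfamily was followed in thymocytes that had just passed positive selection: *Tnfrsf4* (OX40), *Tnfrsf18* (GITR), *Tnfrsf9* (4-1BB), *Tnfrsf1a* (TNFR1), *Tnfrsf1b* (TNFR2), *Cd27*, *Tnfrsf25* (DR3) and *Fas*. They were chosen by name as members of the family carried by T-lineage cells, with earlier results of these data known. Their share of calls beside that of all genes is therefore a description only. They were found by Entrez Gene ID, and all 8 of the 8 were among the 27179 genes counted and passed the filter on low counts. RNA had been sequenced from 18 samples of 9 mice, which were 3 WT, 3 Hoil ΔCd4 and 3 Sharpin cpdm animals, with CD69+ cells of low and of high surface MHC I sorted apart from each animal (the MHC I low and the MHC I high fraction), and the labels give no treatment. Hoil ΔCd4 mice carry a floxed *Rbck1* gene, whose promoter and first exons are removed by Cre under the *Cd4* promoter, so HOIL-1 is lost only in cells that have switched on *Cd4*, which thymocytes do at the double-positive (DP) stage. Sharpin cpdm mice carry a spontaneous mutation of *Sharpin* in every cell, and their line came from C57BL/Ka with few backcrosses to C57BL/6, so strain and SHARPIN loss cannot be told apart in that comparison. HOIL-1 and SHARPIN are both parts of the linear ubiquitin chain assembly complex (LUBAC). Ages were not given in the labels used here. The sorter gated out dead cells and cells with CD25, CD44 or markers of other lineages, which removes regulatory T cells that carry CD25.

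TNF family receptors are membrane proteins that bind trimeric ligands and pass the signal on through adaptors. One branch, to which OX40, GITR, 4-1BB, TNFR2 and CD27 belong, recruits TRAF proteins and drives NF-κB and cell survival. The other branch, TNFR1, DR3 and Fas, holds a death domain in the cytoplasm and can signal either to NF-κB or to caspase-8. LUBAC attaches linear ubiquitin chains to proteins in several of these receptor complexes, and in the thymus OX40, GITR and TNFR2 are known from precursors of regulatory T cells, for which they act as co-stimulators.

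Of the 8 genes, 5 lie on mouse chromosome 4 (GRCm38, the build of the counts, also called mm10). *Tnfrsf1b* (Entrez Gene 21938) spans chr4:145212368-145246870, *Tnfrsf9* (21942) chr4:150920155-150946104, *Tnfrsf25* (85030) chr4:152115528-152120119, *Tnfrsf4* (22163) chr4:156013595-156016613 and *Tnfrsf18* (21936) chr4:156026322-156028894. *Tnfrsf4* and *Tnfrsf18* are neighbours, 9.71 kb apart and read in the same direction. On chromosome 6, *Cd27* (21940, chr6:125232620-125237136) and *Tnfrsf1a* (21937, chr6:125349723-125362483) are separated by 112.6 kb, in which *Ltbr*, the gene of the lymphotoxin β receptor, also lies. *Fas* (14102) is on chromosome 19 at chr19:34290647-34327775.

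A stretch upstream of *Tnfrsf18* is shown because it lies between these neighbours, which moved together in the samples as described below. It comes from the RefSeq promoter table of GRCm38.p6, is on the plus strand (chr4:156026072-156026163), covers the 92 bases from 250 to 159 bases before the RefSeq start site, and lies within the span of the non-coding gene *Gm16008*.
Tnfrsf18: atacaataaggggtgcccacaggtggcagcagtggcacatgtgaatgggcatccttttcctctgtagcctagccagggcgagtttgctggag
It does not hold the κB consensus, the binding motif of NF-κB proteins. The table gives 10 promoters for the 8 receptors, each from 250 bases before to 50 bases after the start, and 2 of them, those of *Tnfrsf9* and *Tnfrsf25*, hold the consensus on either strand. Of all 32851 mouse promoters in the table, 8.46% do. The matches are printed with the motif in capitals, to show the letters found, and each has up to 10 bases on either side. In *Tnfrsf9* (chr4:150927946-150927975) the motif runs from 43 to 34 bases before the start, and it overlaps another match that begins 1 base later and is a match on both strands. In *Tnfrsf25*, 1 match (chr4:152116305-152116334) lies 28 to 19 bases before the start and another (chr4:152116369-152116392) 36 to 45 bases after it. For both genes this start lies inside the gene span given above, not at its first base. The matches are therefore within those spans and not upstream of them.
Tnfrsf9: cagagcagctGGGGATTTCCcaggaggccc
Tnfrsf25, before the start: aaaggggtctGGGGGCCTCCacttctcaga
Tnfrsf25, after the start: gctgctggcaGGGGGCCTCCtctg
A TATA box (TATAAA, searched on both strands) was in none of the 10 receptor promoters and in 13.6% of all. A match describes the letters only, and no binding was measured in these samples.

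The samples held 10577966 to 16266128 counted reads each. Levels are given in CPM (a gene's share of the library's reads, with library sizes scaled by TMM), and differences as log2 fold changes with a standard error (SE) from one limma model of the 12798 genes that passed the filter. Calls were made at a p-value under 0.05 after Benjamini–Hochberg adjustment over all 12798 genes. In MHC I low cells *Rbck1* was at 222.5 ± 6.08 CPM (SD, n = 3) in WT mice against 0.544 ± 0.256 CPM in Hoil ΔCd4 mice, and at 266.1 ± 2.28 against 5.72 ± 2.81 CPM in MHC I high cells, so the Hoil ΔCd4 labels held. *Sharpin* was at 91.3 ± 5.76 CPM in WT and 71.5 ± 4.49 CPM in Sharpin cpdm MHC I low cells, so the mutant gene was still transcribed. *H2-K1*, the MHC I gene of the sort, had 215.6 ± 5.87 CPM in the low and 2003 ± 27.0 CPM in the high fraction of WT mice. All 9 T-lineage markers were found in every sample, and none was called in Hoil ΔCd4 mice against WT. In Sharpin cpdm mice *Cd69* was lower (−0.34, adjusted p = 0.00353, limma) and *Ccr7* (0.36, adjusted p = 0.000145), *Cd3e* (0.30), *Trac* (0.29) and *Lck* (0.15) were higher in MHC I low cells, and *Cd8a* (0.32) and *Lck* (0.17) in MHC I high cells. Of the 3 MHC I genes, *H2-D1* was higher than WT in Sharpin cpdm MHC I low cells (0.24, adjusted p = 0.000996), and all 3 were lower in Hoil ΔCd4 than in Sharpin cpdm MHC I low cells (−0.25 to −0.30). *Trdc*, of the γδ T cell markers, was called higher than WT in the MHC I high fraction of Hoil ΔCd4 mice (0.38, adjusted p = 0.0394). The part of these differences in the receptor levels was not tested. B-cell markers summed to between 3.41 and 6.2 CPM and 4 of the 6 stayed under 1 CPM in every sample. Those of myeloid and dendritic cells summed to between 2.51 and 10.2 CPM. Those of thymic epithelium summed to between 6.03 and 11.9 CPM, and 5 of the 6, all but *Epcam*, stayed under 1 CPM in every sample. Those of NK and γδ T cells summed to between 10.9 and 41.9 CPM, and 3 of the 4 found, all but *Trdc*, stayed under 1 CPM. The *Xist* and *Ddx3y* levels were female in the 3 WT mice but in only 1 Hoil ΔCd4 and 1 Sharpin cpdm mouse, so genotype and sex were partly confounded. In the labels the samples are separate mice, and both fractions of a mouse come from 1 animal. In bulk samples, fewer cells that carry a receptor and less RNA per cell cannot be told apart.

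Per length of transcript (RPKM, here CPM per kilobase of exon), *Cd27* was by far the most abundant of the 8 receptors, and *Tnfrsf25* the least. In WT MHC I low cells the mean levels were 451.5 ± 17.2 RPKM (SD, n = 3) for *Cd27*, 68.6 ± 2.25 for *Tnfrsf18*, 42.0 ± 5.02 for *Tnfrsf9*, 37.5 ± 2.3 for *Fas*, 35.2 ± 2.78 for *Tnfrsf1a*, 29.0 ± 0.294 for *Tnfrsf4*, 18.95 ± 2.63 for *Tnfrsf1b* and 6.21 ± 0.285 for *Tnfrsf25*. The samples of *Tnfrsf9* and *Fas*, and those of *Fas* and *Tnfrsf1a*, overlapped, and the other neighbours in this order did not. In WT MHC I high cells *Cd27* (255.8 ± 0.85 RPKM) and *Tnfrsf18* (85.5 ± 1.32) still led. *Tnfrsf9* (51.2 ± 6.05 RPKM), *Tnfrsf4* (47.6 ± 4.24), *Tnfrsf1b* (41.3 ± 2.0) and *Fas* (38.2 ± 1.75) followed, each overlapping the next, ahead of *Tnfrsf1a* (33.9 ± 0.758) and *Tnfrsf25* (17.9 ± 1.88).

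**Figure D1:**
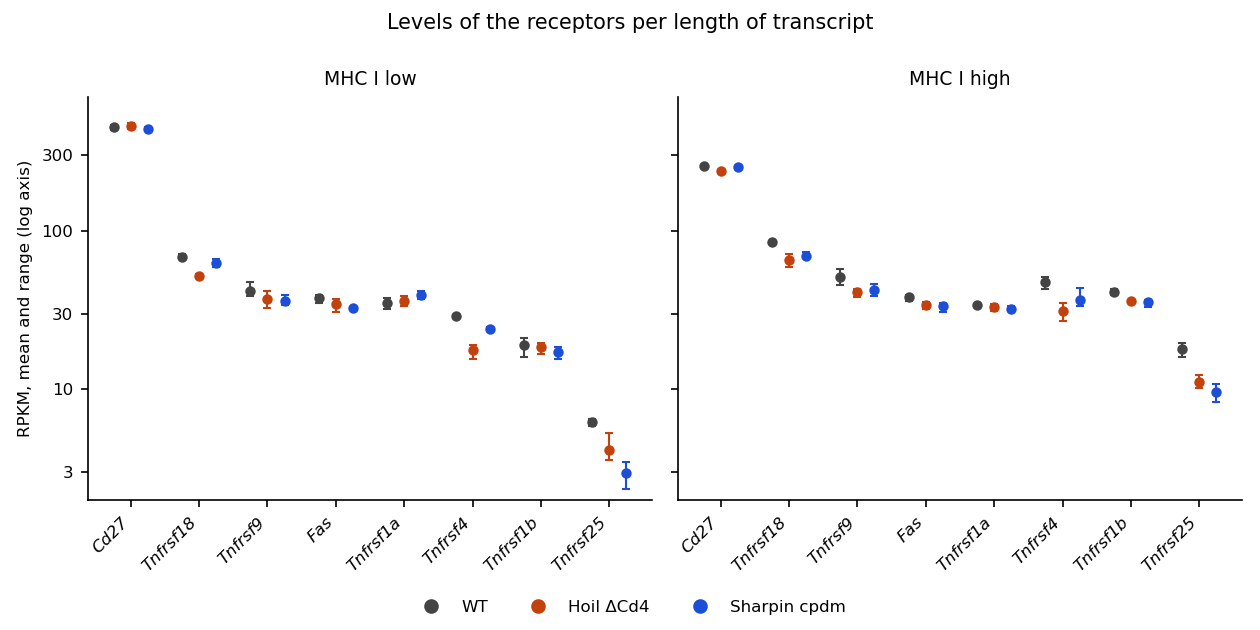
Level of each receptor per kilobase of exon (RPKM, log axis) in either fraction, with the genes ordered by their WT MHC I low level, points at the mean of 3 mice and bars over the range. *Cd27* lies highest and *Tnfrsf25* lowest in all 6 groups, and *Tnfrsf4* is 6th in WT MHC I low cells (29.0 RPKM) but 7th in Hoil ΔCd4 MHC I low cells (17.8 RPKM).

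*Tnfrsf4* held different places in this order in the genotypes. In Hoil ΔCd4 cells it was 7th of 8 in both fractions, at 17.8 ± 1.91 RPKM in MHC I low cells, next to and overlapping *Tnfrsf1b* (18.55 ± 1.55), and at 31.2 ± 4.14 RPKM in MHC I high cells, where its samples overlapped those of *Tnfrsf1a* (33.2 ± 1.82). In Sharpin cpdm cells it kept the 6th and 4th places it had in WT cells, at 24.1 ± 0.61 and 36.9 ± 5.91 RPKM.

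How the receptors change as CD69+ cells raise MHC I was read from both fractions of each mouse. In WT mice, 5 of the 8 receptors were higher in MHC I high than in MHC I low cells and *Cd27* fell, where 54.4% of all genes tested were called (27.5% higher and 26.8% lower). *Tnfrsf25* rose most, by a log2 fold change of 1.47 (SE 0.123, adjusted p = 1.25e-11, limma), from 10.1, 10.4 and 9.46 CPM in WT mice 1, 2 and 3 to 31.6, 28.8 and 25.6 CPM. DR3, which it encodes, is the receptor of TL1A. *Tnfrsf1b* rose from 96.6, 78.8 and 103.9 CPM to 193.0, 203.5 and 212.6 CPM (1.13, SE 0.0625, adjusted p = 7.24e-15), and TNFR2 is the TNF receptor without a death domain. The groups did not overlap for either gene.

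The pair of neighbours on chromosome 4 rose as well. *Tnfrsf4* went from 33.7, 33.1 and 33.6 CPM in the low to 49.5, 56.8 and 58.8 CPM in the high fraction of WT mice (0.74, SE 0.0883, adjusted p = 5.46e-08, limma), and *Tnfrsf18* from 67.2, 71.6 and 68.5 to 84.9, 85.9 and 87.5 CPM (0.33, SE 0.0539, adjusted p = 5.25e-06). *Tnfrsf9*, whose protein 4-1BB appears on activated T cells, went from 87.3, 86.5 and 106.2 to 100.7, 113.1 and 127.6 CPM (0.33, SE 0.077, adjusted p = 0.000861). Each WT mouse had more *Tnfrsf9* in its MHC I high sample, although the groups overlapped between mice.

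*Cd27*, the receptor of CD70 and present on nearly all thymocytes, moved the other way. Its WT levels were 681.2, 733.1 and 720.4 CPM in MHC I low and 404.7, 402.8 and 402.1 CPM in MHC I high cells, a log2 fold change of −0.81 (SE 0.0386, adjusted p = 1.23e-17, limma). A long non-coding RNA, *E130112N10Rik*, covers the whole of *Cd27*, and the strand setting of the counting is not stated in the sources used here, so reads of the pair could be mixed. It had 15.6 to 19.5 CPM in WT MHC I low and 10.7 to 16.4 CPM in WT MHC I high cells, far below *Cd27*. For *Tnfrsf1a* (−0.07, 95% interval −0.18 to 0.04, adjusted p = 0.304) and *Fas* (0.04, −0.07 to 0.15, adjusted p = 0.586) no change between the WT fractions was called.

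**Figure D2:**
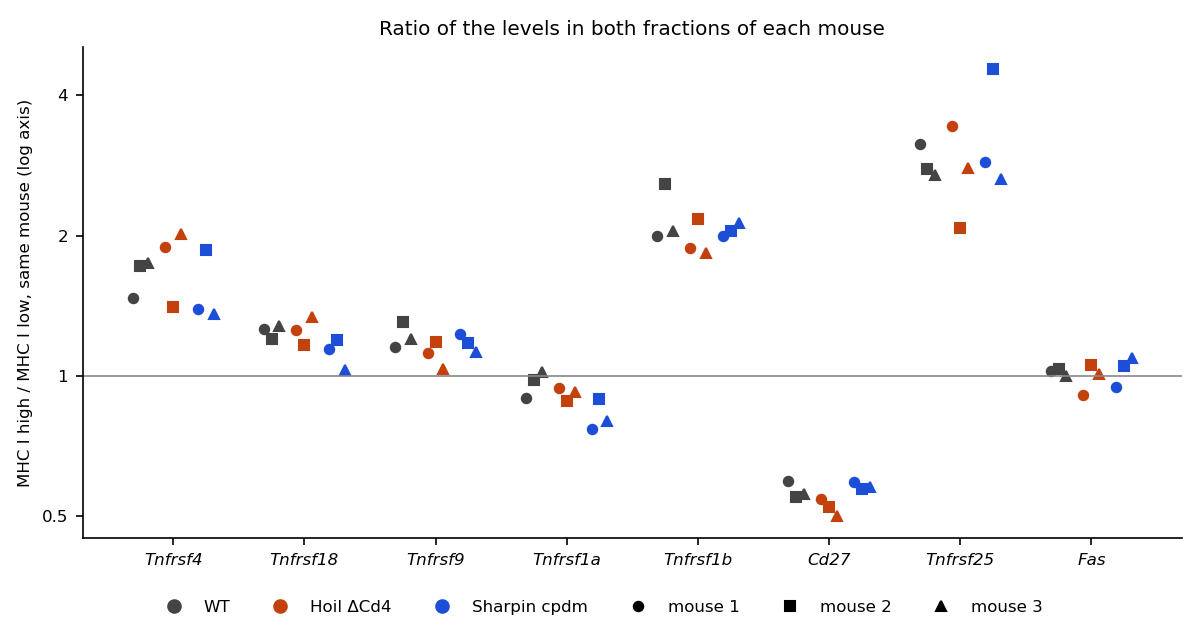
Ratio of the MHC I high to the MHC I low level (CPM) in the same mouse, on a log axis, for 8 receptors in 9 mice, with colours for the genotype and symbols for the mouse number. *Tnfrsf25* (ratios 2.07 to 4.55), *Tnfrsf1b* (1.83 to 2.58) and *Tnfrsf4* (1.35 to 2.01) lie above 1 in all 9 mice, and *Cd27* (0.5 to 0.594) lies below 1 in all 9.

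The change between fractions was then read in each mutant. In Hoil ΔCd4 mice 5 of the 8 were called between fractions (45.3% of all genes, 23.5% higher and 21.7% lower), 4 higher in MHC I high cells and *Cd27* lower. In Sharpin cpdm mice 7 were called (54.6% of all genes, 27.2% higher and 27.4% lower), 5 higher and 2 lower. Within single mice, *Tnfrsf18* was 1.03 to 1.34 times and *Tnfrsf9* 1.03 to 1.31 times as high in the MHC I high sample, and the ratio was above 1 in 9 of 9 mice for both. *Tnfrsf9* was called in WT and in Sharpin cpdm (0.24, adjusted p = 0.0153) but not in Hoil ΔCd4 mice (0.14, adjusted p = 0.254), and the difference between genotypes was not called. In Sharpin cpdm mice the calls of *Tnfrsf18* and *Tnfrsf9* were lost without mouse 1 (adjusted p = 0.109 and 0.145) or mouse 2 (0.239 and 0.0608) and with edgeR (0.0511 and 0.0634), that of *Tnfrsf18* also with DESeq2 (0.0529) and that of *Tnfrsf9* also without the mouse as a block (0.0611). *Tnfrsf1a*, which carries the main death domain receptor for TNF, was called only in Sharpin cpdm mice, where it fell from 89.4, 80.5 and 83.5 CPM to 68.8, 72.0 and 66.9 CPM (−0.27, SE 0.057, adjusted p = 0.0002, limma). Its ratio was below 1 in 8 of 9 mice, and for *Fas* the ratios ran from 0.91 to 1.09.

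Whether the mutants differed from WT in the change between fractions was tested directly, as the difference of the differences. None of the 8 receptors was called for Hoil ΔCd4 (0.398% of all genes were) or for Sharpin cpdm mice (3.13%), and edgeR and DESeq2 also called none. At an unadjusted p under 0.05, 0 of the 8 receptors and 1338 of all genes differed for Hoil ΔCd4, and 1 receptor, *Tnfrsf1a*, and 2287 genes for Sharpin cpdm mice. The 95% intervals of the difference were −0.23 to 0.34 for *Tnfrsf4*, −0.45 to 0.06 for *Tnfrsf9* and −0.43 to 0.37 for *Tnfrsf25* in Hoil ΔCd4, and −0.36 to −0.04 for *Tnfrsf1a* and −0.06 to 0.67 for *Tnfrsf25* in Sharpin cpdm mice.

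**Figure D3:**
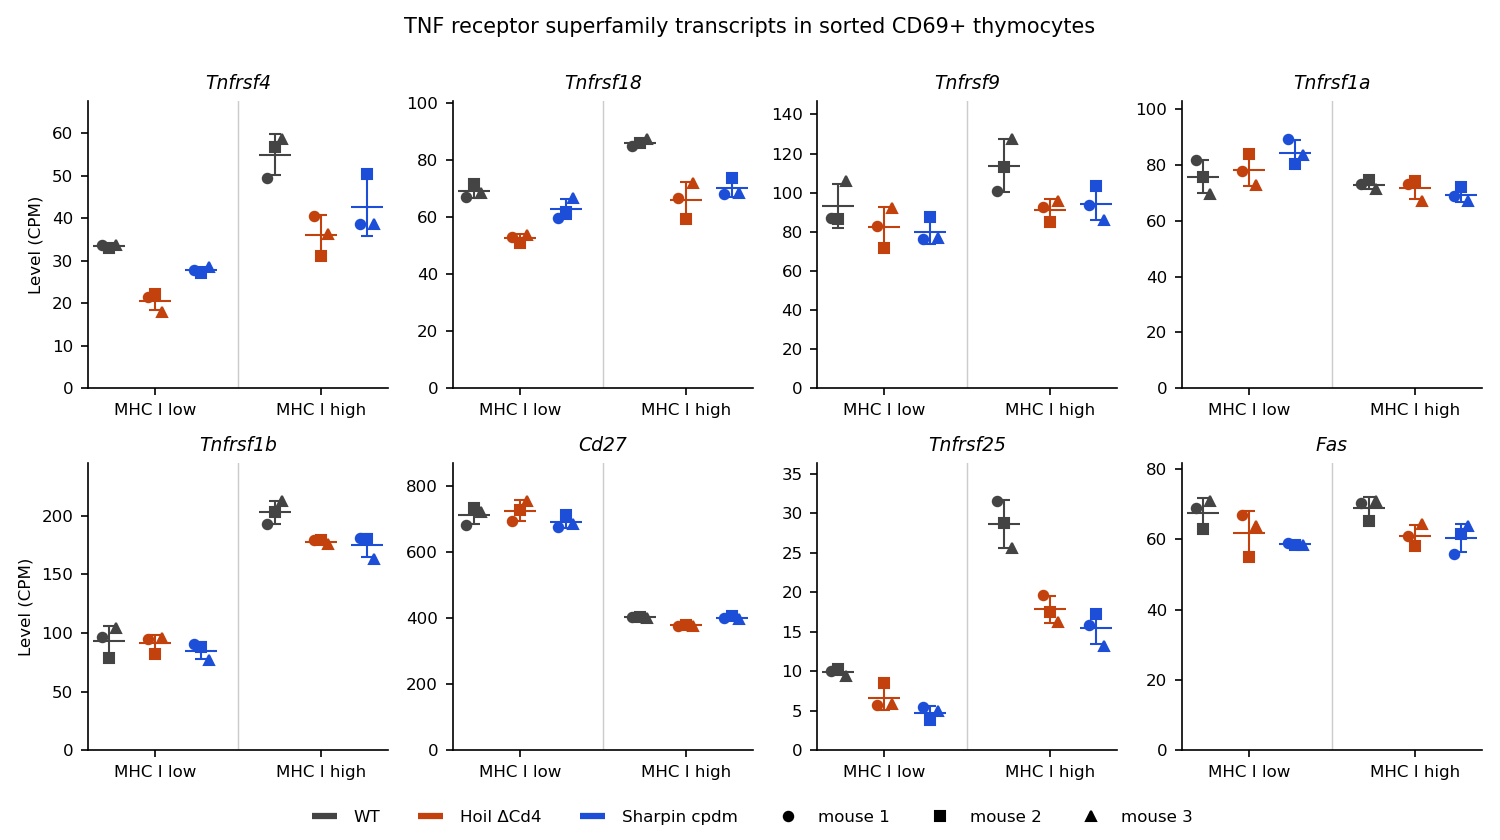
Level of each of the 8 receptors in CPM (axes from 0) in the 18 samples, with MHC I low cells on the left and MHC I high cells on the right of each panel, symbols for the mouse number, and lines and bars for the mean and SD of 3 mice. For *Tnfrsf4*, Hoil ΔCd4 samples lie at 18.1 to 22.1 CPM in MHC I low cells, below the WT samples at 33.1 to 33.7 CPM, and for *Tnfrsf25* Sharpin cpdm samples lie at 3.79 to 5.54 CPM, below WT at 9.46 to 10.4 CPM.

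Loss of HOIL-1 was compared with WT within each fraction. In MHC I low cells 2 of the 8 receptors were called, *Tnfrsf4* and *Tnfrsf18*, both lower, where 0.985% of all genes were called and 0.563% called lower. *Tnfrsf4* was at 21.5, 22.1 and 18.1 CPM in Hoil ΔCd4 mice 1, 2 and 3 against 33.7, 33.1 and 33.6 CPM in WT mice, a log2 fold change of −0.73 (SE 0.118, adjusted p = 0.000586, limma), or 0.604 times the WT level. *Tnfrsf18* was at 53.2, 51.0 and 53.7 against 67.2, 71.6 and 68.5 CPM (−0.39, SE 0.0719, adjusted p = 0.00228). For both genes, and for *Tnfrsf25*, every Hoil ΔCd4 sample lay below every WT sample, 3 of the 8 receptors where 7.62% of all genes did. *Tnfrsf25* (5.74, 8.48 and 5.83 against 10.1, 10.4 and 9.46 CPM) missed the threshold (−0.61, SE 0.165, adjusted p = 0.065). It passed in 5 of the 22 alternatives, 1 of them without Hoil ΔCd4 mouse 2, its highest sample (−0.76, adjusted p = 0.0355), and 1 without Sharpin cpdm mouse 2 (−0.61, adjusted p = 0.0306).

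In MHC I high cells 4 of the 8 receptors were called in Hoil ΔCd4 mice, all lower, where 6.65% of all genes were called and 2.81% called lower. *Tnfrsf4* was at 40.6, 31.1 and 36.3 CPM against 49.5, 56.8 and 58.8 CPM in WT (−0.67, SE 0.106, adjusted p = 0.000209, limma), and *Tnfrsf18* at 66.9, 59.5 and 71.9 against 84.9, 85.9 and 87.5 CPM (−0.40, SE 0.0646, adjusted p = 0.000195). *Tnfrsf9* was at 92.9, 85.2 and 95.5 against 100.7, 113.1 and 127.6 CPM (−0.37, SE 0.0922, adjusted p = 0.0165). Again no Hoil ΔCd4 sample reached the lowest WT sample. *Tnfrsf25*, at 19.7, 17.6 and 16.3 against 31.6, 28.8 and 25.6 CPM, fell by 0.64 on the log2 scale (SE 0.148, adjusted p = 0.00691). Without Hoil ΔCd4 mouse 2 only *Tnfrsf4* and *Tnfrsf18* were called (*Tnfrsf25* −0.61, adjusted p = 0.0666, and *Tnfrsf9* −0.32, adjusted p = 0.143). The *Tnfrsf25* call was also lost without Hoil ΔCd4 mouse 3 (adjusted p = 0.0931) or WT mouse 1 (0.0821), and the *Tnfrsf9* call without WT mouse 2 (0.0624) or 3 (0.298), with edgeR (0.0944) and without sample weights (0.0696).

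The samples of 7 receptors, all but *Tnfrsf1a*, lay wholly below WT in Hoil ΔCd4 MHC I high cells, which 9.45% of all genes did. Of these, 3 missed the threshold. *Tnfrsf1b* was at 178.9, 179.0 and 175.6 CPM against 193.0, 203.5 and 212.6 CPM (−0.21, adjusted p = 0.0935, limma), *Fas* at 60.9, 58.1 and 64.2 against 70.3, 65.1 and 70.8 CPM (−0.19, adjusted p = 0.0804) and *Cd27* at 377.8, 380.8 and 377.8 against 404.7, 402.8 and 402.1 CPM (−0.09, adjusted p = 0.263). Over the 8 receptors the median log2 fold change was −0.15 for the low and −0.29 for the high fraction, beside medians within 0.01 of 0 over all genes tested.

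SHARPIN loss was compared with the same WT samples, so the values of both mutants against WT are not independent. In MHC I low cells 2 receptors, *Tnfrsf25* and *Fas*, were called in Sharpin cpdm mice, both lower, where 12.2% of all genes were called and 6.92% called lower. *Tnfrsf25* was at 5.54, 3.79 and 5.02 CPM in Sharpin cpdm mice 1, 2 and 3, against 10.1, 10.4 and 9.46 CPM in WT, a log2 fold change of −1.10 (SE 0.15, adjusted p = 7.22e-06, limma). This was the largest difference of any receptor from WT in either mutant, and it was called in all 22 alternatives. Its counts were the lowest of the 8 receptors, between 44 and 459 reads per sample. *Fas* was at 58.9, 58.5 and 58.4 against 68.8, 62.9 and 70.9 CPM (−0.21, SE 0.0673, adjusted p = 0.0385), and this call was lost in 10 of the 22 alternatives, among them both count models and without any 1 of Sharpin cpdm mice 1, 2 and 3 or of WT mice 1 and 3 (adjusted p = 0.0784 to 0.201).

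The samples of 4 receptors lay wholly below WT in Sharpin cpdm MHC I low cells (14.3% of all genes did), which adds *Tnfrsf4* and *Tnfrsf18* to those called. *Tnfrsf4*, at 27.8, 27.2 and 28.6 CPM, was at −0.28 (SE 0.107, adjusted p = 0.0927, limma), and *Tnfrsf18*, at 59.8, 61.8 and 66.7 CPM, at −0.15 (SE 0.0656, adjusted p = 0.144).

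In Sharpin cpdm MHC I high cells 6 of the 8 receptors were called, all lower, where 8.62% of all genes were called and 4.47% called lower. *Tnfrsf25* was at 15.9, 17.2 and 13.3 CPM against 31.6, 28.8 and 25.6 CPM in WT (−0.80, SE 0.136, adjusted p = 0.000203, limma), again in all 22 alternatives. *Tnfrsf18* was at 68.2, 73.8 and 68.4 against 84.9, 85.9 and 87.5 CPM (−0.29, SE 0.0593, adjusted p = 0.00149). Both lay wholly below WT. *Tnfrsf4* was at 38.7, 50.5 and 38.8 CPM (−0.35, SE 0.097, adjusted p = 0.0214), where the sample of mouse 2 lay above the lowest WT sample of 49.5 CPM.

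The other receptors called in these cells were *Tnfrsf9*, *Tnfrsf1b* and *Fas*. *Tnfrsf9* was at 93.8, 103.2 and 86.2 CPM (−0.30, SE 0.0846, adjusted p = 0.0314, limma), *Tnfrsf1b* at 181.2, 179.7 and 163.2 CPM (−0.23, SE 0.0687, adjusted p = 0.0377) and *Fas* at 55.8, 61.4 and 63.7 CPM (−0.20, SE 0.0609, adjusted p = 0.0333). Of the 8 receptors 4, *Tnfrsf18*, *Tnfrsf25*, *Tnfrsf1b* and *Fas*, lay wholly below WT (10.8% of all genes). The number called rested on single mice. Without WT mouse 3 only *Tnfrsf25* was called, and over all genes 239 in place of 1103. The MHC I high sample of that mouse had the largest sample weight in the limma fit, 2.42, beside 0.963 for WT mouse 1 and 0.642 for WT mouse 2. Without WT mouse 1 or without Sharpin cpdm mouse 3, 3 receptors were called, and edgeR and DESeq2 each called 3.

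*Tnfrsf1a* and *Cd27* were called against WT in neither mutant and neither fraction. For *Tnfrsf1a* the log2 fold changes lay between −0.05 and 0.15, and the 95% interval furthest from 0, in Sharpin cpdm MHC I low cells, ran from 0.01 to 0.28 (89.4, 80.5 and 83.5 CPM against 81.8, 75.9 and 69.8 CPM in WT). For *Cd27* they lay between −0.09 and 0.03, and no interval went beyond −0.18 or 0.14.

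**Figure D4:**
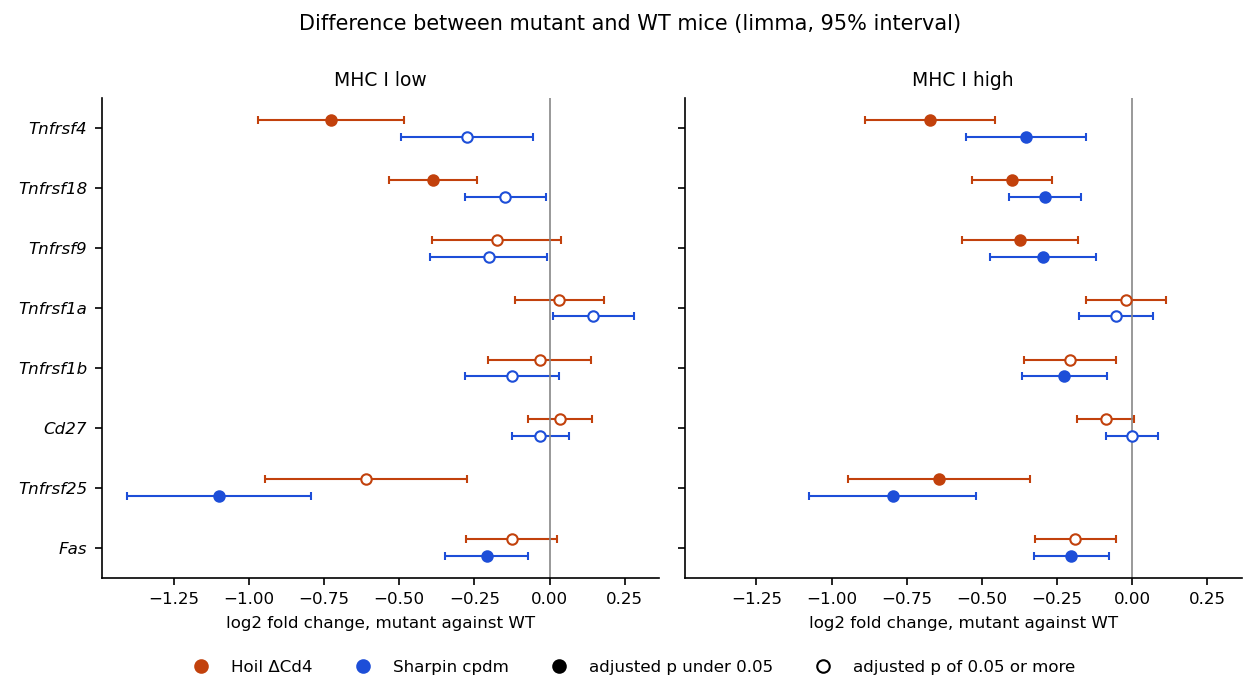
Log2 fold change of each receptor in Hoil ΔCd4 and in Sharpin cpdm mice against WT (limma, 3 mice per group), with the 95% interval as bars, for MHC I low cells on the left and MHC I high cells on the right, and filled points where the adjusted p is under 0.05. *Tnfrsf4* is furthest from 0 in Hoil ΔCd4 mice (−0.73 and −0.67) and *Tnfrsf25* in Sharpin cpdm mice (−1.10 and −0.80), and *Tnfrsf1a* and *Cd27* lie near 0.

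Both mutants were also compared with each other. The log2 fold changes set mutant samples against mutant samples, but the SE and adjusted p come from the model of all 18 samples, WT included. In MHC I low cells *Tnfrsf4* (−0.45, SE 0.121, adjusted p = 0.0179, limma) and *Tnfrsf18* (−0.24, SE 0.0739, adjusted p = 0.0356) were lower in Hoil ΔCd4 than in Sharpin cpdm mice, 2 of 8 receptors called where 9.48% of all genes were called and 4.36% lower. In both genes the Hoil ΔCd4 samples lay wholly below those of Sharpin cpdm mice (14.2% of all genes). Without Hoil ΔCd4 mouse 3 neither was called (*Tnfrsf4* −0.35, adjusted p = 0.128, and *Tnfrsf18* −0.26, adjusted p = 0.0551). The *Tnfrsf18* call was also lost without Hoil ΔCd4 mouse 1 or 2 or Sharpin cpdm mouse 2 or 3. With only the groups compared, a fit without WT samples, *Tnfrsf4* was called and *Tnfrsf18* was not. *Tnfrsf25* lay the other way, higher in every Hoil ΔCd4 than in any Sharpin cpdm sample (13.6% of all genes), with a log2 fold change of 0.49 (95% interval 0.14 to 0.83) that missed the threshold (adjusted p = 0.0648).

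In MHC I high cells no receptor was called between the mutants by limma, edgeR or DESeq2, where 6.73% of all genes were called by limma, and 1 receptor, *Tnfrsf4*, and 2715 genes had an unadjusted p under 0.05. *Tnfrsf4* was at −0.32 (95% interval −0.54 to −0.10, adjusted p = 0.0692), and it passed without Hoil ΔCd4 mouse 1 (−0.39, adjusted p = 0.0345). The intervals were −0.24 to 0.02 for *Tnfrsf18*, −0.15 to 0.46 for *Tnfrsf25* and −0.27 to 0.12 for *Tnfrsf9*.

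Because sex and genotype overlapped only in part, the mice with a female pattern were also set side by side, 1 mouse of each mutant against the 3 WT mice, with no test. Hoil ΔCd4 mouse 3 had 18.1 CPM of *Tnfrsf4* in MHC I low and 36.3 CPM in MHC I high cells, below the WT samples (33.1 to 33.7 and 49.5 to 58.8 CPM), and it was below WT for *Tnfrsf18* and *Tnfrsf25* in both fractions as well. Sharpin cpdm mouse 2 had 3.79 and 17.2 CPM of *Tnfrsf25*, below WT (9.46 to 10.4 and 25.6 to 31.6 CPM), but 50.5 CPM of *Tnfrsf4* and 103.2 CPM of *Tnfrsf9* in MHC I high cells, within the WT range. It was also below WT for *Tnfrsf18* and *Fas* in both fractions, for *Tnfrsf4* in MHC I low and for *Tnfrsf1b* in MHC I high cells. With *Xist* as a covariate, the 2 calls of MHC I low and the 4 of MHC I high cells in Hoil ΔCd4 mice stayed under the threshold (adjusted p = 0.00114 to 0.0346), as did both calls between the mutants. In Sharpin cpdm mice *Tnfrsf25* was still called in both fractions and *Tnfrsf18* in MHC I high cells, while *Fas* was lost in MHC I low cells (0.145) and *Tnfrsf4*, *Tnfrsf9*, *Tnfrsf1b* and *Fas* in MHC I high cells (0.0568 to 0.0648).

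**Figure D5:**
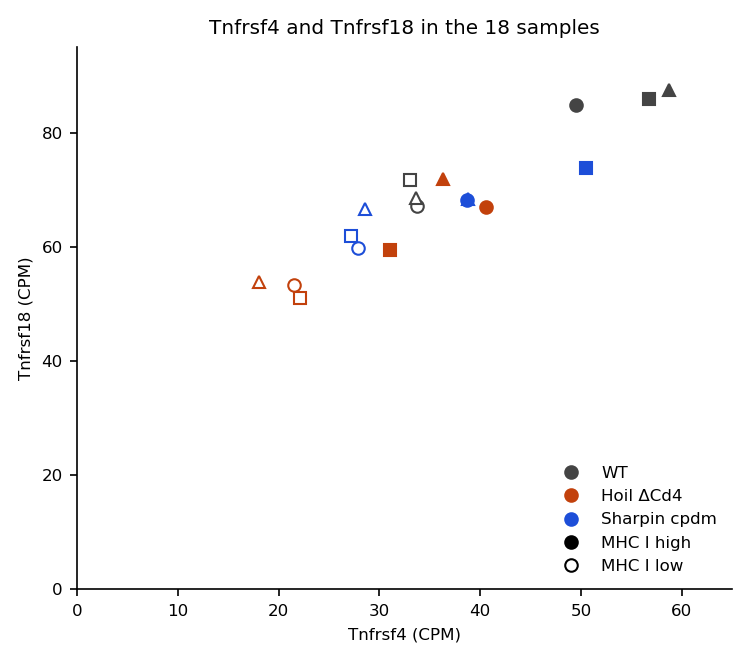
*Tnfrsf18* against *Tnfrsf4*, both in CPM, in the 18 samples, with filled symbols for MHC I high and open ones for MHC I low cells, colours for the genotype and shapes for the mouse number. Hoil ΔCd4 MHC I low samples lie lowest (18.1 to 22.1 CPM of *Tnfrsf4*). WT MHC I high samples lie highest in *Tnfrsf18* (84.9 to 87.5 CPM). In *Tnfrsf4* (49.5 to 58.8 CPM) a Sharpin cpdm MHC I high sample, at 50.5 CPM, lies among them.

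*Tnfrsf4* and *Tnfrsf18* ran together across samples. The samples fall into both fractions, so correlations of log2 CPM are given within each, over 9 samples that share the 3 genotypes, as a description. Between the neighbours Pearson's r was 0.913 for the low and 0.919 for the high fraction, the highest of the 28 receptor pairs in each fraction. *Tnfrsf1b* and *Cd27*, which moved in opposite directions between fractions (r = −0.962 over all 18 samples), had r of 0.00383 and 0.441 within them. Whether overlapping genes shared reads was not tested. *Tnfrsf4* shares 16 bases with the end of *Sdf4*, which lay between 261.6 and 322.5 CPM in all samples, and *Tnfrsf18* lies inside the span of the non-coding *Gm16008*, which had at most 0.485 CPM.

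Of all genes tested, those most like each receptor over the 18 samples were listed by Pearson's r. For *Tnfrsf4* these were *Cd74* (r = 0.955), *Bhlhe40* (0.945) and *Cd82* (0.943), with r between 0.805 and 0.939 within the fractions. For *Tnfrsf18* they were *Tnfrsf4* (0.933), *Bhlhe40* (0.905) and *Cd74* (0.905). *Tnfrsf25* was most like *Traf1* (0.968), the gene of an adaptor of TNF receptors, *Ifngr2* (0.965) and *Skil* (0.965), and for *Traf1* r was 0.92 for the low and 0.82 for the high fraction.

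For *Cd27* the likeness over all samples was not kept within the fractions. *Cd27* was most like *Bcl6* (0.991), *4930417O13Rik* (0.991) and *A430093F15Rik* (0.99), but within the fractions r was 0.495 and 0.265 for *Bcl6* and 0.707 and −0.512 for *4930417O13Rik*. That non-coding gene lies 28.4 kb from *Cd27* (chr6:125265525-125273777) and went from 104.1–112.4 CPM in WT MHC I low to 23.2–25.2 CPM in WT MHC I high cells. *Tnfrsf1b* was most like *Cyth3* (0.988), *Foxo1* (0.985) and *Rcn1* (0.985), with r between 0.624 and 0.813 within fractions. The leading genes for *Tnfrsf9* were *Rln3* (0.854), *Rnf149* (0.834) and *Gsap* (0.828), for *Tnfrsf1a* *Ap2a1* (0.891), *Septin1* (0.873) and *Ptms* (0.868), and for *Fas* *Zfp971* (0.83), *Il2ra* (0.802) and *Rps6ka6* (0.801).

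The surroundings of the receptors on their chromosomes were examined in the same fit. Within 500 kb of *Tnfrsf4* 35 other genes were tested, and in Hoil ΔCd4 cells of either fraction the only one called was *Tnfrsf18*. In Sharpin cpdm cells 3 of the 35 were called in each fraction. Over all genes tested, 0.985% (low fraction) and 6.65% (high fraction) were called in Hoil ΔCd4 cells, and 12.2% and 8.62% in Sharpin cpdm cells. Around *Tnfrsf25*, 16 genes were tested, and 2 were called in Sharpin cpdm MHC I low cells (*Klhl21* and *Kcnab2*) and 4 in MHC I high cells (*Klhl21*, *Zbtb48*, *Plekhg5* and *Nphp4*), 1 and 3 of them lower. None of the 6 genes tested around *Tnfrsf9* was called against WT in either mutant.

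Ligands of the family are made by these cells too. Of 18 ligand genes 11 were tested, and those called against WT numbered 3 (low fraction) and 1 (high fraction) for Hoil ΔCd4, and 5 and 2 for Sharpin cpdm mice, beside 0.985%, 6.65%, 12.2% and 8.62% of all genes in the same order. *Ltb*, the gene of lymphotoxin β, fell in MHC I low cells of both mutants (−0.33 in Hoil ΔCd4, adjusted p = 0.00228, and −0.26 in Sharpin cpdm mice, adjusted p = 0.0028, limma), and *Tnf* fell in Hoil ΔCd4 MHC I low cells (−0.55, adjusted p = 0.0395). *Tnfsf8*, which encodes the CD30 ligand, rose in MHC I low cells of both (0.63, adjusted p = 0.04, and 0.61, adjusted p = 0.00433). *Cd40lg*, whose product CD40L acts on antigen-presenting cells, rose in MHC I high cells of both (0.31, adjusted p = 0.00543, and 0.26, adjusted p = 0.0104) and, in Sharpin cpdm mice, also in MHC I low cells (0.34, adjusted p = 0.00172). *Fasl*, the ligand of Fas, fell in Sharpin cpdm MHC I low cells (−1.40, adjusted p = 0.0187), and *Tnfsf9*, the ligand of 4-1BB, fell in Sharpin cpdm mice in MHC I high (−0.86, adjusted p = 0.00192) and MHC I low cells (−0.60, adjusted p = 0.0452), the latter call being lost without any 1 of the 9 mice (0.0523 to 0.121) and the former without WT mouse 1 (0.0508) or 3 (0.082) or Sharpin cpdm mouse 2 (0.11). These counts were small and rested on single mice. Without WT mouse 3 they were 1 and 0 for Hoil ΔCd4 but 3 and 0 for Sharpin cpdm mice, and without WT mouse 1 they were 1 and 0 in Hoil ΔCd4 mice and 0 in Sharpin cpdm MHC I high cells. The Hoil ΔCd4 counts were also 1 and 0 without Hoil ΔCd4 mouse 2, 1 in MHC I low cells without Sharpin cpdm mouse 3 and 2 in MHC I high cells without WT mouse 2. Those of Sharpin cpdm mice were 3 in MHC I low cells without their mouse 1, and 1 in MHC I high cells without mouse 1 or 2. *Tnf* and *Tnfsf8* lost their Hoil ΔCd4 calls without any 1 WT mouse (adjusted p = 0.0658 to 0.146 and 0.0769 to 0.0955). *Fasl* lost its Sharpin cpdm call without WT mouse 3 (0.0682) or Sharpin cpdm mouse 1 (0.155). Dropping WT mouse 1 left *Cd40lg* uncalled in the high fraction of Hoil ΔCd4 (limma, adjusted p = 0.328) and Sharpin cpdm mice (0.417). Dropping WT mouse 3 did the same (0.217 and 0.306). So did dropping Hoil ΔCd4 mouse 2 for the former (0.062) and Sharpin cpdm mouse 1 for the latter (0.088).

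Of 20 other receptors of the superfamily, 13 were tested. With all mice limma called none in Hoil ΔCd4 mice, where 0.985% (low fraction) and 6.65% (high fraction) of all genes were called. Without Hoil ΔCd4 mouse 1 it called 1 in MHC I high cells. With all mice edgeR and DESeq2 also called none. By limma 1 of the 13 for the low and 3 for the high fraction had an unadjusted p under 0.05, beside 1419 and 2821 of the 12798 genes tested. These counts do not set the 13 apart from all genes. *Ltbr*, which lies between *Cd27* and *Tnfrsf1a*, had at most 3.01 CPM in any sample. In Sharpin cpdm mice 4 receptors were called for the low and 3 for the high fraction, all lower, beside 6.92% and 4.47% of all genes called lower. In both fractions these were the paralogs *Tnfrsf26*, *Tnfrsf22* and *Tnfrsf23*, with *Tnfrsf8* added in the low fraction, so the counts do not describe the family at large. Strain and SHARPIN loss cannot be told apart for these genes either. *Tnfrsf26* had 414 to 582 counts in each WT MHC I low sample and 0 in the Sharpin cpdm samples, which makes it at least 145-fold lower against 3 counts per sample. In MHC I high cells it had 2 counts in all in Sharpin cpdm mice and 1050 in WT mice, a ratio of 552 (95% interval 152 to 4564, counting error only). Its paralogs *Tnfrsf22* (−2.44 and −2.74, adjusted p = 1.67e-06 and 3.12e-08, limma) and *Tnfrsf23* (−2.71 in MHC I low cells, adjusted p = 0.0007) also fell. Whether reads were shared among these paralogs was not tested. *Tnfrsf23* in MHC I high cells had 2 counts against 66 in WT mice, a ratio of 34.7 (9.23 to 292.5). *Tnfrsf8* (CD30) had 3 counts against 30 in MHC I low cells, a ratio of 8.72 (2.71 to 44.6), but 56 against 29 in MHC I high cells.

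Genes that work next to the receptors inside the cell were 27, all tested. Against WT, Hoil ΔCd4 mice had 3 calls in the low and 4 in the high fraction, all lower, and Sharpin cpdm mice had 9 (6 lower) and 7 (6 lower). The shares of all genes called were 0.985%, 6.65%, 12.2% and 8.62% in that order. *Tnfaip3*, the gene of the deubiquitinase A20, fell in all 4 comparisons (−0.45 and −0.43 in Hoil ΔCd4, −0.56 and −0.31 in Sharpin cpdm mice, with adjusted p of 0.000174, 2.61e-05, 1.67e-07 and 0.000322 in that order, limma). *Birc3*, which encodes cIAP2, fell in Hoil ΔCd4 cells (−0.44 and −0.27, adjusted p = 0.000318 and 0.006) and those of Sharpin cpdm mice (−0.62 and −0.26, adjusted p = 4.72e-08 and 0.00286). *Traf1* fell in Hoil ΔCd4 MHC I high (−0.31, adjusted p = 0.0425) and Sharpin cpdm MHC I low cells (−0.74, adjusted p = 8.53e-06). *Map3k14*, the gene of the kinase NIK, rose in Sharpin cpdm cells (0.45 and 0.31, adjusted p = 5.34e-06 and 0.000299), and *Traf4* fell in Sharpin cpdm MHC I high cells (−0.36, adjusted p = 2.75e-05). In MHC I high cells the counts rested on single mice. The 4 of Hoil ΔCd4 mice became 2 without Hoil ΔCd4 mouse 3, WT mouse 1 or WT mouse 3, and the 7 of Sharpin cpdm mice became 4 without WT mouse 1 and 3 without WT mouse 3. *Traf1* lost its Hoil ΔCd4 call without any 1 WT mouse (adjusted p = 0.0691 to 0.213), and *Birc3* its call in the Hoil ΔCd4 high fraction without WT mouse 1 (0.0846) or 3 (0.122) or Hoil ΔCd4 mouse 2 (0.182) or 3 (0.0556) and in the Sharpin cpdm high fraction without WT mouse 3 (0.0872).

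OX40, GITR and TNFR2 are also carried by precursors of regulatory T cells, so the markers of those cells and of other strongly signalled thymocytes were read in the same samples. *Foxp3* had between 0.43 and 1.09 CPM in MHC I low and between 2.65 and 6.95 CPM in MHC I high cells and was not called against WT in any comparison. *Il2ra*, the gene of the CD25 that the sort gated out, fell in both mutants in both fractions (−1.34 and −1.10 in Hoil ΔCd4, −1.37 and −1.11 in Sharpin cpdm mice), and so did *Lrrc32* (−1.33, −2.22, −2.07 and −2.02 in the same order). *Lrrc32* had few reads, with 2.41 CPM in WT and 0.499 CPM (at most 8 counts in a sample) in Sharpin cpdm MHC I low cells. Of the 8 markers, 2 and 3 were called for Hoil ΔCd4 and 6 and 5 for Sharpin cpdm mice, all lower, beside 0.563%, 2.81%, 6.92% and 4.47% of all genes called lower. Others lay above WT without a call. These were *Ctla4* in Sharpin cpdm mice (0.25 and 0.27), *Foxp3* (0.31) and *Ikzf2* (0.18) in Hoil ΔCd4 MHC I low cells, and *Nr4a1* in both Hoil ΔCd4 fractions (0.12 and 0.03). The 2 of Hoil ΔCd4 MHC I low cells became 1 without Hoil ΔCd4 mouse 1 or 3 or any 1 WT mouse, and the 5 of Sharpin cpdm MHC I high cells became 3 without WT mouse 3. Their summed level was 1951 to 2301 CPM in WT, 2173 to 2322 in Hoil ΔCd4 and 1482 to 1593 in Sharpin cpdm MHC I low cells, and 1111 to 1254, 1008 to 1209 and 916.4 to 931.9 CPM in MHC I high cells. Most of that sum was *Ikzf2* and *Nr4a1* (874.1 and 993.5 CPM in WT MHC I low cells), which were called against WT in Sharpin cpdm but not in Hoil ΔCd4 mice. The part of any of these markers in the receptor levels was not tested.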

How the data were processed

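RNA was measured in 18 samples of sorted CD69+ thymocytes, 6 groups of 3 from 9 mice. The authors mapped single-end reads of 75 bases to mm10 with subread, and featureCounts assigned them to genes of its RefSeq-based annotation, and the deposited values are these whole-number counts, neither normalized nor pooled. Versions, strand and multi-mapping settings are not given in the sources used here. Of 27179 genes, 25275 were matched to symbols and coordinates of GRCm38.p6, and 1904 with 0.655% of the counts were not. Depth was 10577966 to 16266128 counts per sample (median 13979793), and replicates of a group differed by more than counting noise (chi-square per degree of freedom 5 to 15.7).

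The design was that of the study. A gene had to reach 0.5 CPM in 3 or more samples, and genes on chromosome Y, *Xist* and genes predicted or lacking a symbol were dropped, which left 12798. TMM-scaled log2 CPM (prior count 1) were fitted in limma with sample weights, the mouse as a random block (correlation 0.224), an abundance trend and robust empirical Bayes. The fractions of each mouse come from the same animal, and in all 9 mice they deviated together from their group means (r from 0.0702 to 0.256). The software was DESeq2 1.42.0, edgeR 4.0.16, limma 3.58.1 and statmod 1.5.0 in R 4.3.3, and the scripts were tested on simulated data. Intervals of ratios of small counts are exact binomial at 95%. The 22 alternatives were edgeR, DESeq2, library size or DESeq2 size factors as the scaling, no low-count filter, a minimum of 10 counts in each sample, keeping predicted genes, leaving out sample weights or the block, a fixed block of mouse numbers, *Xist* as a covariate, a prior count of 3, only the groups compared, and each of the 9 mice left out.

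The receptors and gene lists were chosen with earlier results of these data known. Named were all 8 receptors, in each list up to 4 called genes with the smallest p per comparison with WT and any list gene between 2 receptors, the 3 genes most like each receptor, and marker genes. The overlapping and neighbouring genes were added after their values were seen, as were correlations within fractions and the female mice alone. Protein sequences were not analysed here.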

Additional observations from a re-analysis of the deposited data

Results flagged for a closer look

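None of the 8 receptors changed between fractions to a different degree in a mutant than in WT by the limma test. Among the ligands, other receptors and signalling genes 8 did, each listed with the log2 difference of the change (mutant minus WT) and its adjusted p. In Hoil ΔCd4 mice these were *Cd40lg* (0.43, adjusted p = 0.0284, limma) and the deleted *Rbck1* itself (3.07, adjusted p = 0.00422). In Sharpin cpdm mice they were *Tnfrsf8* (3.06, adjusted p = 0.000761), *Ltb* (0.25, 0.0339), *Fasl* (1.66, 0.0477), *Traf1* (0.48, 0.0183), *Birc3* (0.36, 0.0071) and, in the other direction, *Tnfsf8* (−0.73, 0.0136). For *Tnfrsf8* this rests on 3 counts in all in Sharpin cpdm MHC I low cells.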

How the results depend on the processing

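The calls of *Tnfrsf4* and *Tnfrsf18* in Hoil ΔCd4 MHC I low cells and of *Tnfrsf25* in Sharpin cpdm cells of both fractions held in all 22 alternatives. In Hoil ΔCd4 MHC I high cells the 4 receptors called ranged from 2 to 4 as single mice were left out. There edgeR called 3, and the *Tnfrsf9* call was also lost without sample weights. With only the groups compared, *Tnfrsf1b* was called there in addition (adjusted p = 0.022, limma). In Sharpin cpdm MHC I low cells the 2 receptors called became 1 with edgeR, with DESeq2, without the low-count filter, without sample weights and with *Xist* as a covariate, and 1 to 3 without single mice. With only the groups compared, *Tnfrsf4* was called in these cells in addition (adjusted p = 0.0236, limma). In Sharpin cpdm MHC I high cells the 6 became 3 with edgeR, 3 with DESeq2, 2 without the low-count filter, 2 without sample weights, 2 with *Xist* and 1 to 6 without single mice. Between the mutants, the 2 receptors called in MHC I low cells became 1 with only the groups compared and 0 to 2 without single mice, and the 0 in MHC I high cells became 1 with at least 10 counts in every sample and 0 to 1 without single mice. Mouse numbers were not taken to pair animals of different genotypes (same-numbered mutant and WT samples had r from −0.0212 to 0.153). With the number as a fixed replicate block, 3 of the 6 receptors were called in Sharpin cpdm MHC I high cells. The count moved by less than or equal to 1.5 times in every other comparison. Without the mouse as a block, 5 were called in Sharpin cpdm MHC I high cells.

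Receptors whose log2 difference changed sign were none of those called, in 34 cases over 17 results, with adjusted p from 0.72 to 1 where they did. With *Xist*, these were *Tnfrsf1a* (−0.0183) and *Tnfrsf1b* (0.0127) in Hoil ΔCd4 MHC I low cells, *Cd27* (0.0189, and 0.0025 scaled by library size) in Sharpin cpdm MHC I high cells, and the change between fractions of *Tnfrsf25* in Hoil ΔCd4 (0.0223) and of *Fas* in Sharpin cpdm mice (−0.00525). The change of *Tnfrsf18* in Hoil ΔCd4 mice was 0.00758 with edgeR, 0.00445 with DESeq2 and 0.00633 without sample weights. Without single mice, Hoil ΔCd4 against WT in MHC I low cells ran from −0.0212 to 0.0942 for *Tnfrsf1a*, −0.129 to 0.0688 for *Tnfrsf1b* and −0.0027 to 0.0682 for *Cd27*, and in MHC I high cells from −0.057 to 0.0203 for *Tnfrsf1a*. Hoil ΔCd4 against Sharpin cpdm ran from −0.0709 to 0.114 for *Tnfrsf9* in MHC I low cells, and in MHC I high cells from −0.116 to 0.0111 for *Tnfrsf9*, −0.0213 to 0.0558 for *Tnfrsf1b* and −0.0333 to 0.0595 for *Fas*. MHC I high against low ran from −0.0877 to 0.00212 for *Tnfrsf1a* in WT and −0.0626 to 0.0439 for *Fas* in Hoil ΔCd4 mice. The difference of that change from WT ran from −0.0462 to 0.221 for *Tnfrsf4*, −0.0635 to 0.0435 for *Tnfrsf18* and −0.212 to 0.155 for *Tnfrsf25* in Hoil ΔCd4, and from −0.168 to 0.00844 for *Tnfrsf1b*, −0.0214 to 0.369 for *Tnfrsf25* and −0.0448 to 0.0509 for *Fas* in Sharpin cpdm mice.

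Counts over all genes moved as well. Against WT, the genes called over all alternatives were 62 to 221 (126 as reported) in Hoil ΔCd4 MHC I low, 134 to 1229 (851) in Hoil ΔCd4 MHC I high, 828 to 1728 (1565) in Sharpin cpdm MHC I low and 239 to 1367 (1103) in Sharpin cpdm MHC I high cells. Between the mutants they were 701 to 1637 (1213) and 325 to 1160 (861), and for the change between fractions 0 to 62 (51) in Hoil ΔCd4 and 30 to 501 (400) in Sharpin cpdm mice. The cause was not tested. With 44 to 459 counts per sample, *Tnfrsf25* had the widest intervals of the 8 receptors.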
